A study of Bos grunniens with 3 samples.

Results

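The DNA replication genes of yak skin cells were described by cell class and by stage of the hair cycle. They were chosen by name alone, as each gene whose symbol starts with MCM, POLA, POLD, POLE, RFC, GINS or ORC followed by a digit, the RPA, PRIM and RRM genes, and *PCNA*, *UHRF1*, *DNMT1*, *HELLS*, *CLSPN*, *CHEK1*, *FEN1*, *LIG1*, *CDC6*, *CDC45*, *CDT1*, *TYMS* and *PARP1*. This gave 44 of the 26924 genes in the count matrices. A further 11 names, *MCM4*, *MCM8*, *MCM10*, *GINS1*, *PRIM1*, *POLA2*, *POLD3*, *POLD4*, *RPA2*, *FEN1* and *TYMS*, were matched to no symbol and were not analysed here. The name also took in *MCM3AP*, whose product binds an MCM subunit and is not a subunit itself.

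A cell copies its genome once per division. The origin recognition complex marks the start sites, CDC6 and CDT1 load the MCM helicase onto them, and CDC45 and the GINS complex then switch the helicase on. DNA polymerase alpha with primase begins each strand, polymerases delta and epsilon extend it, and the ring-shaped clamp PCNA, set on DNA by the RFC complex, holds the polymerase in place. In skin these genes are known from the hair matrix and the basal epidermis, where cells divide, and they are switched down as keratinocytes differentiate.

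The data hold 3 single-cell RNA libraries (10x Genomics), 1 from each stage. They came from the scapular skin of Tianzhu white yaks aged about 2 years, with no treatment and no genetic change. The study's paper describes the anagen and catagen libraries only, and the telogen library is known here from its labels. Whether it was made alongside the other libraries is not given in the sources used here. Anagen is the growth phase of the hair follicle, catagen its regression and telogen its rest. Hair follicles were pulled from the skin after dispase and digested with trypsin. The labels give tissue, age and digestion for each library. The study's methods name 3 yaks for anagen and catagen and do not tie them to libraries, and the animals of the telogen library are not given in the sources used here, so animal, library and stage cannot be told apart, and the stage of the catagen library rests on its title and stage label, since its protocol text names anagen.

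After cells with under 200 detected genes had been left out, the libraries held 11987, 12062 and 14502 cells in anagen, catagen and telogen, with 82816430, 51537357 and 103430933 UMIs (unique molecular identifiers, each standing for 1 captured transcript). The median cell held 5256, 3350 and 5583.5 UMIs, and the smallest 2404, 500 and 500. Levels are given as CPM, the share of all UMIs of the library or class that a gene held, scaled to a total of 1000000. There is no replicate of any stage, so no test was possible, and the 95% intervals (exact Poisson for levels, exact binomial for ratios and shares) cover counting error only. A ratio of at least 2-fold in either direction is called past 2-fold. Between 40 and 49 cell barcodes were shared by any pair of libraries.

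All 44 members summed to 1033 CPM in anagen, 850 CPM in catagen and 747 CPM in telogen. The sum was lower in catagen than in anagen by a log2 ratio of -0.28 (-0.30 to -0.27) and lower in telogen than in anagen by -0.47 (-0.48 to -0.45). Over the 10530 genes with a mean of at least 1 CPM, the median gene had a log2 ratio of 0.15 in catagen and -0.18 in telogen, each over anagen, so relative to the median gene the members stood at -0.44 and -0.29. The log2 ratio of telogen over catagen was -0.19 (-0.20 to -0.17), and it turned to 0.17 relative to the median gene and to 0.31 with median-of-ratios scaling. In sums over a library, fewer cells of a type and fewer transcripts per cell cannot be told apart.

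The minimum of 1 CPM was passed by 42 members, the exceptions being *GINS3* and *GINS4*, subunits of the GINS complex, at 0.37 to 0.91 CPM. In catagen, 3 of the 42 were past 2-fold lower than in anagen (*RRM2*, *CDT1* and *UHRF1*) and 1 was past 2-fold higher (*POLE4*), against 3.85% and 7.89% of all genes tested. With cells of at least 1000 detected genes, 0 were past 2-fold lower in catagen, against 3.57% of all genes, and with median-of-ratios scaling 12 were, against 7.41%. In telogen, 4 were past 2-fold lower than in anagen (*UHRF1*, *CLSPN*, *CDC6* and *MCM2*) and 1 higher (again *POLE4*), against 10.1% and 3.08% of all genes. Between telogen and catagen 0 members were past 2-fold, where 17.1% of all genes were lower and 3.95% higher in telogen. Relative to the median gene, 8 members were past 2-fold lower in catagen than in anagen, with *MCM2*, *MCM3*, *MCM5*, *ORC1* and *CDC45* added, and *UHRF1* alone in telogen, against 5.57% and 6.99% of all genes. The direction of catagen over anagen held under all 4 scalings for 38 of the 42 members, 25 lower and 13 higher. The share of all genes that held was not computed. By CPM alone, 25 members were lower and 17 higher in catagen, where 4163 of the 10530 genes were lower and 6367 higher.

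**Figure D1:**
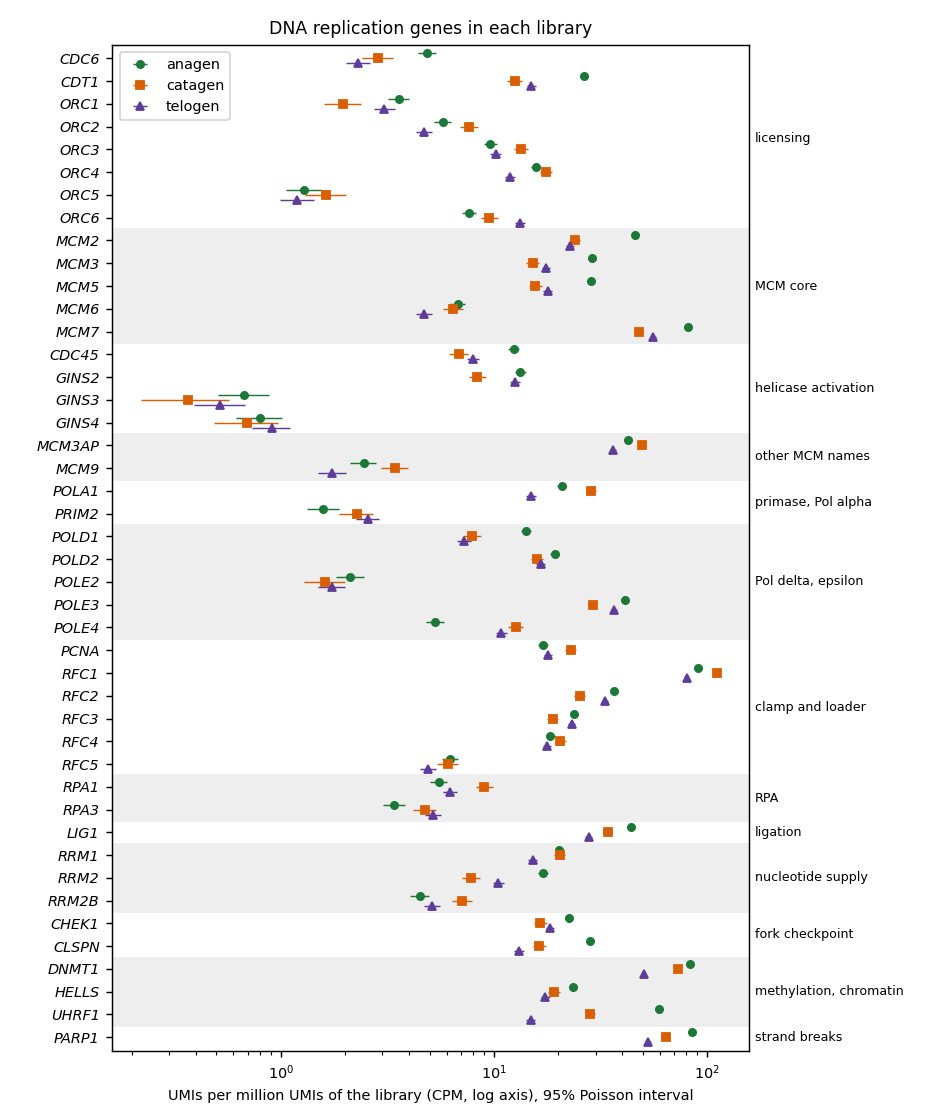
The plot of levels gives CPM on a log axis for each of the 44 members in the anagen (circles), catagen (squares) and telogen (triangles) libraries, with 95% Poisson intervals, grouped by role. *MCM2*, *MCM3*, *MCM5*, *MCM7* and *UHRF1* have their anagen point to the right of the other points, and *POLE4* has it to the left.

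The subunits of the MCM helicase, which unwinds DNA ahead of the polymerases, were lower outside anagen as a group. *MCM7* was at 81.3 CPM in anagen, 47.8 CPM in catagen and 56.1 CPM in telogen. *MCM2* was at 46.0, 24.0 and 22.8 CPM in the same order, a log2 ratio of -0.94 (-1.03 to -0.85) in catagen and -1.01 (-1.09 to -0.94) in telogen. *MCM3* was at 29.0, 15.2 and 17.6 CPM and *MCM5* at 28.7, 15.7 and 17.9 CPM. Anagen was thus highest and catagen lowest for *MCM3*, *MCM5* and *MCM7*. *MCM6* stood apart in catagen, with 6.77, 6.46 and 4.71 CPM so that catagen stood at a log2 ratio of -0.07 (-0.27 to 0.13) to anagen. The sum of the 5 subunits had log2 ratios of -0.81 (-0.86 to -0.77) in catagen and -0.69 (-0.72 to -0.65) in telogen, and kept these directions under all scalings.

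The licensing genes split. *CDT1*, which brings the MCM ring to origins, was at 26.6 CPM in anagen, 12.5 CPM in catagen and 15.0 CPM in telogen, and *CDC6*, its partner, at 4.87, 2.85 and 2.30 CPM. *ORC1*, the origin subunit known to be made and destroyed in each cell cycle, was at 3.59, 1.96 and 3.06 CPM. All 3 were lower in catagen than in anagen. The other subunits, *ORC2* to *ORC6*, were higher in catagen than in anagen by 0.16 to 0.48 on the log2 scale. Of these, *ORC4* stood at 0.007 relative to the median gene and did not keep its direction under all scalings. The interval of *ORC5* ran from -0.09 to 0.76. *ORC6* was at 7.67, 9.53 and 13.3 CPM, with a ratio of telogen over anagen of 0.79 (0.66 to 0.93). *ORC2* was at 5.77, 7.66 and 4.72 CPM, among the 4 members with the lowest ratio of telogen over catagen. Of the genes that activate the helicase, *CDC45* was at 12.4, 6.83 and 7.996 CPM, and *GINS2* at 13.3, 8.38 and 12.6 CPM.

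The polymerases and their clamp showed no common direction. *POLD1*, the catalytic subunit of polymerase delta, was at 14.1, 7.92 and 7.25 CPM in anagen, catagen and telogen. *POLE4*, a small histone-fold subunit of polymerase epsilon, went the other way, with 5.29, 12.7 and 10.8 CPM and log2 ratios of 1.26 (1.08 to 1.44) in catagen and 1.04 (0.88 to 1.2) in telogen. *POLE3*, its partner in the histone-fold pair, was at 41.2, 29.0 and 36.5 CPM. *POLA1*, the catalytic subunit of polymerase alpha, was highest in catagen, at 20.8, 28.6 and 14.9 CPM, and *PRIM2*, a primase subunit, was at 1.58, 2.27 and 2.56 CPM. *PCNA* was at 17.0, 22.97 and 18.0 CPM, with a log2 ratio of 0.43 (0.32 to 0.54) in catagen, opposite in sign to the MCM genes in the same library. Of the clamp loader, *RFC1*, the large subunit and the member with the most UMIs, was at 90.8, 112 and 81.0 CPM. *RFC2* was at 36.7, 25.2 and 33.3 CPM. Catagen against anagen, the summed clamp and loader had a log2 ratio of 0.09 (0.06 to 0.13), which turned to -0.06 relative to the median gene.

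The single-strand binding genes, whose products coat unwound DNA, were higher outside anagen under all scalings. *RPA1* was at 5.53 CPM in anagen, 9.02 CPM in catagen and 6.24 CPM in telogen, and *RPA3* at 3.42, 4.73 and 5.19 CPM. The genes for ribonucleotide reductase, which supplies deoxynucleotides, differed among themselves. *RRM2*, the subunit made for S phase, was at 17.0, 7.80 and 10.5 CPM, and catagen stood at -1.12 (-1.28 to -0.96) to anagen on the log2 scale, the lowest among the members. *RRM2B*, the form known for supply outside S phase and after DNA damage, was at 4.49, 7.10 and 5.11 CPM, a ratio of 0.66 (0.45 to 0.87). *RRM1*, which pairs with either, was at 20.2, 20.4 and 15.3 CPM.

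*UHRF1* had the largest difference between stages. Its product binds hemimethylated DNA behind the fork and brings in the methyltransferase DNMT1. It was at 59.6 CPM in anagen, 28.3 CPM in catagen and 14.9 CPM in telogen, and the log2 ratios over anagen were -1.08 (-1.16 to -0.99) and -2.00 (-2.09 to -1.92). *DNMT1* was at 82.9, 72.7 and 50.6 CPM, and *HELLS*, a chromatin remodeller that acts with them, at 23.5, 19.2 and 17.5 CPM. All 3 were lower in both later libraries under all scalings. *CLSPN*, which links stalled forks to the checkpoint kinase, was at 28.2, 16.4 and 13.1 CPM, and *CHEK1*, that kinase, at 22.5, 16.6 and 18.3 CPM. *PARP1*, a sensor of strand breaks, was at 85.2, 64.1 and 53.0 CPM. *LIG1*, which seals Okazaki fragments, was at 44.1, 34.2 and 27.8 CPM. *MCM9*, a helicase of recombination repair, was at 2.45, 3.43 and 1.75 CPM, the lowest ratio of telogen over catagen among the members, -0.97 (-1.28 to -0.67).

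**Figure D2:**
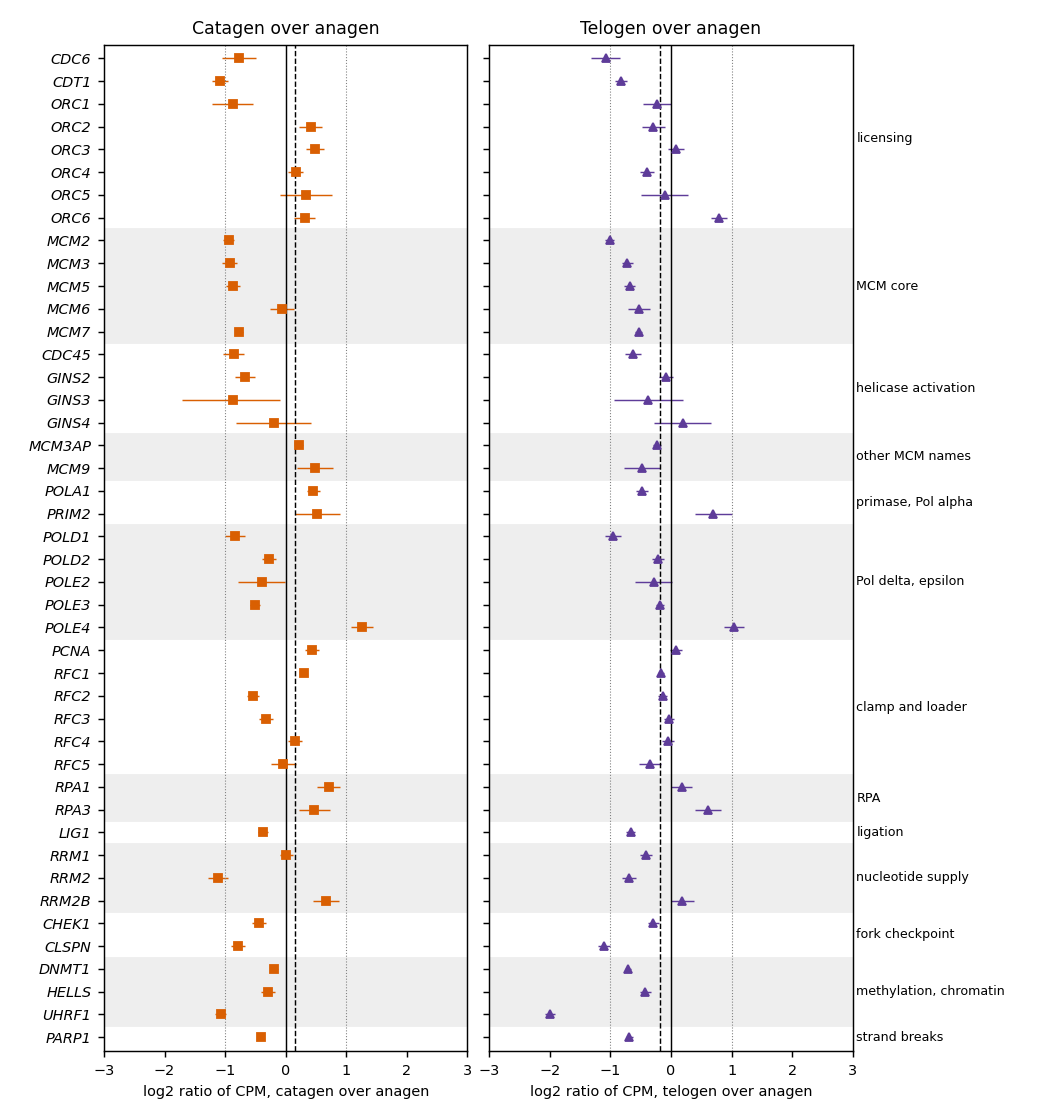
The plot of ratios gives the log2 ratio of CPM with its 95% counting interval for each member, catagen over anagen at left and telogen over anagen at right. The solid line marks 0, the dashed line the median gene (0.15 and -0.18) and the dotted lines 2-fold. *POLE4* lies beyond the 2-fold line on the right in both panels, and *UHRF1* lies at -1.08 and -2.00.

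Cells were grouped into classes from clusters that were built without the members and without lists of cell cycle genes, so the members had no direct part in the grouping. Clusters were named, with -like added, from markers. The study's INFU (infundibulum) markers, *TOP2A* and *UBE2C*, are genes of dividing cells, and *CENPF* and *HMGB2* were among those added here. All of these were raised, so INFU-like is a class of dividing cells and its name says nothing on where in the follicle they lay. A cluster that no marker set named is called by 3 of its leading genes, DCN FABP7 ICA1. *TK1*, a gene of DNA synthesis, is among its 10 leading genes as well, and 3 melanocyte markers were raised in it. With all 3 libraries clustered together, the cluster with these leading genes had 3 hair cortex markers raised beside 3 melanocyte markers. *DPP4* was then a leading gene too, and the study took *DPP4* and *DCN* as fibroblast markers. No cell type is assigned to this cluster. Levels by class are a description, since other genes of the same cells made the clusters.

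The members were highest in these classes. INFU-like cells (732 in anagen, 561 in catagen, 804 in telogen) held 2611, 2504 and 1871 CPM of the summed members, against 869, 735 and 604 CPM in all other cells of their library. The DCN FABP7 ICA1 cluster held 2379 CPM in 1254 anagen cells and 2870 CPM in 427 catagen cells. When all 3 libraries were clustered together, which was added after seeing the data, the cluster with these leading genes held 463, 353 and 121 cells, with 2928, 3039 and 1973 CPM. In anagen, INFU-like cells took 23.9% of the member UMIs with 9.45% of all UMIs, and the DCN FABP7 ICA1 cluster 20.6% with 8.95%. Both classes stood at over 2-fold of the other cells in every library where they were found, but in telogen the log2 ratio of INFU-like cells, 1.63, became 0.82 at a clustering resolution of 1.2.

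The classes with markers of dermal sheath came next. DS-like cells, with the contractile genes *ACTA2* and *TAGLN*, held 1849 CPM in 110 anagen cells and 1905 CPM in 116 catagen cells. The summed mitotic genes were at 1173 and 1227 CPM in them, beside 825 and 751 CPM over the whole library, and no cluster was named DS-like when all 3 libraries were clustered together. The 1 cluster with 3 dermal sheath markers raised was then named HS-like and held 1347 and 1172 CPM of the members in anagen and catagen. The lowest levels lay in classes of differentiated cells. IFE-DC-like cells (interfollicular epidermis, with *KRT1* and *KRT10*) held 468, 508 and 454 CPM in anagen, catagen and telogen, and keratinocyte-like cells 550, 514 and 463 CPM. Between these lay HS-like cells (hair shaft in the study's terms), at 925, 712 and 707 CPM, epidermal-like cells, at 962 CPM in anagen and 708 CPM in catagen, and hair cortex-like cells, at 699 and 671 CPM. The HS markers were genes such as *LHX2*, *IGFBP5* and *CXCL14*, whereas the hair keratins *KRT35* and *KRT85* were markers of hair cortex-like cells. The name HS-like thus follows the study and does not place these cells in the hair shaft. IRS-like cells (inner root sheath, with *KRT71*) held 552, 497 and 885 CPM. The telogen IRS-like cluster also had 6 hair cortex markers raised, and with all 3 libraries clustered together IRS-like cells held 672, 583 and 681 CPM. Endothelial-like cells, which are no part of the follicle epithelium, held 883 CPM in 80 anagen cells. In telogen 60.6% of cells took no name and held 616 CPM.

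**Figure D3:**
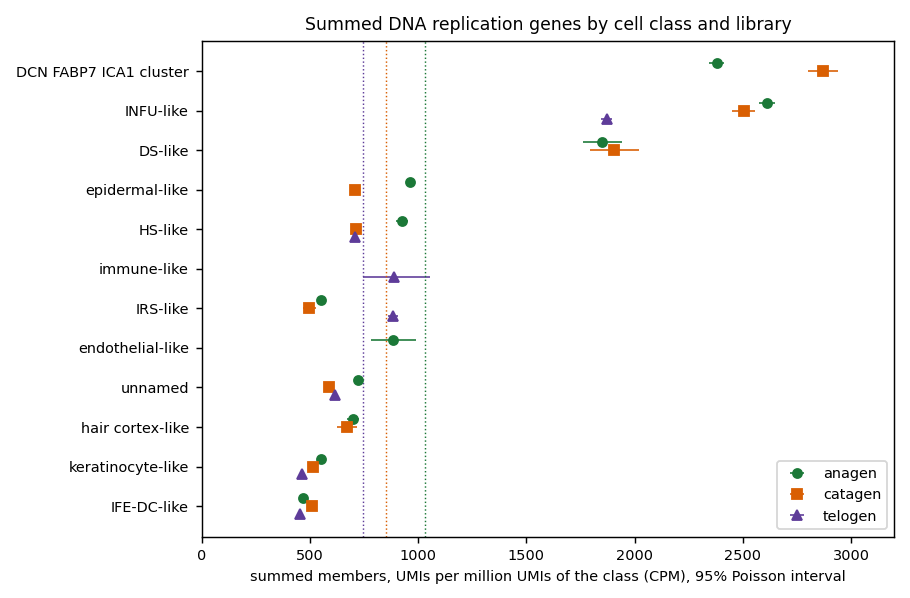
The plot by class gives the summed members in CPM for each class with at least 50 cells in a library, with 95% Poisson intervals. Dotted lines mark the level of the whole library (1033 in anagen, 850 in catagen, 747 in telogen). The points of the DCN FABP7 ICA1 cluster, INFU-like and DS-like cells lie at 1849 CPM or above, and all others at 962 CPM or below.

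Most members, not a few abundant ones, were higher in INFU-like cells. Of the 42, 29 in anagen, 31 in catagen and 28 in telogen were past 2-fold over the other cells, on the log2(CPM + 1) scale, against 9.71%, 14.2% and 5.18% of all genes. Past 2-fold lower were 0 members in each, against 7.67%, 10.5% and 3.2% of all genes. The 28 of telogen were the members past 2-fold in all 3 libraries, among them *MCM2*, *MCM3*, *MCM5*, *MCM6*, *MCM7*, *PCNA*, *UHRF1*, *DNMT1*, *HELLS* and *PARP1*. In 0 of the 3 libraries past 2-fold were 10 members, *ORC2*, *ORC3*, *ORC4*, *MCM3AP*, *MCM9*, *POLD2*, *POLE4*, *RFC1*, *RPA1* and *RRM2B*. In the DCN FABP7 ICA1 cluster 25 members in anagen and 34 in catagen were past 2-fold higher, against 3.69% and 11.7% of all genes. All 25 were also among the 28 of INFU-like cells, and 8 members were past 2-fold in neither class in any library.

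The leading members differed between these classes. In INFU-like cells *CLSPN*, *RRM2* and *UHRF1* were the 3 leading members of at least 20 CPM in each library. *CLSPN* was at 140.0 CPM in anagen against 16.5 CPM in other cells, at 144 against 7.49 CPM in catagen and at 75.3 against 5.25 CPM in telogen. *RRM2* was at 83.8, 62.0 and 64.0 CPM, against 9.99, 4.03 and 3.73 CPM in other cells. *UHRF1* was at 257, 209 and 79.8 CPM, against 39.1, 15.7 and 6.66 CPM. In the DCN FABP7 ICA1 cluster the MCM genes led beside *UHRF1*. *MCM3* was at 91.6 CPM in anagen and 128 CPM in catagen, *MCM5* at 107 and 121 CPM and *UHRF1* at 226 and 221 CPM, each above or close to its level in INFU-like cells, where *MCM3* was at 67.7 and 48.9 CPM and *MCM5* at 63.5 and 46.2 CPM. *CLSPN* was lower there than in INFU-like cells, at 76.7 and 83.2 CPM. The summed mitotic genes, a list of 23 such as *CENPE* and *KIF11*, were at 6039 and 9370 CPM in INFU-like cells of anagen and catagen. The list also holds *TOP2A*, *UBE2C* and *CENPF*, which are among the markers that named INFU-like cells. A high sum in that class thus follows in part from the naming. In the DCN FABP7 ICA1 cluster, which no marker set named, the sum was at 1220 and 808 CPM, beside 825 and 751 CPM over the whole library.

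In DS-like cells 11 members in anagen and 20 in catagen were past 2-fold higher, against 9.78% and 14.1% of all genes. Of members with at least 20 CPM there, *MCM6* led in anagen, at 23.8 CPM against 6.59 CPM in other cells, and *MCM2* in catagen, at 122 against 22.9 CPM. In HS-like cells 0 members were past 2-fold higher in any library, against 7.56%, 6.1% and 3.8% of all genes. Of members with at least 20 CPM there, *PARP1* had the highest ratio in each library, at 120.0, 86.5 and 72.9 CPM against 83.3, 61.0 and 49.8 CPM in other cells. In IFE-DC-like cells 23, 20 and 14 members were past 2-fold lower, against 15.1%, 17.3% and 12% of all genes. *UHRF1* was at 6.21, 0.736 and 1.59 CPM there, while *RFC1* was at 63.2, 103 and 62.3 CPM and *POLE3* at 34.3, 19.995 and 37.2 CPM, against 42.7, 30.7 and 36.4 CPM in other cells. In endothelial-like cells of anagen *PARP1* was at 170 CPM against 84.9 CPM in other cells, and *UHRF1* at 18.2 CPM.

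Between stages, the classes did not move alike. In INFU-like cells catagen stood to anagen at a log2 ratio of -0.06 (-0.10 to -0.02) for the summed members, with 0.19 for the median gene of these cells. The ratio of the members turned to 0.11 without integration of the libraries and to 0.11 with all 3 libraries integrated. In the DCN FABP7 ICA1 cluster the ratio was 0.27 (0.23 to 0.31), with 0.24 for the median gene of the same cells, and it was 0.054 with all 3 libraries integrated and turned to -0.082 without integration. In HS-like cells it was -0.38 (-0.44 to -0.32) and in epidermal-like cells -0.44 (-0.48 to -0.40), with 0.052 and 0.0094 for the median gene. In IFE-DC-like cells it was 0.12 (0.06 to 0.18), with 0.14 for the median gene, and it turned to -0.047 at a clustering resolution of 0.4. In cells without a name it was -0.30 (-0.34 to -0.26), with 0.13 for the median gene. The lower catagen level was thus larger in HS-like, epidermal-like and unnamed cells than in the classes where the members were highest.

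In HS-like cells 9 of 41 members tested were past 2-fold lower in catagen than in anagen (*CLSPN*, *MCM5*, *UHRF1*, *CDC45*, *CDC6*, *CDT1*, *MCM2*, *MCM3* and *CHEK1*), against 4.26% of all genes, and in epidermal-like cells 10 of 42, against 6.55%. In INFU-like cells and in the DCN FABP7 ICA1 cluster 0 of 44 were, which is near the 2.43% and 3.94% of all genes. Past 2-fold higher in catagen were 2 in INFU-like cells (*RPA3* and *POLE4*), against 6.22% of all genes. In the cluster 5 were (*MCM6*, *ORC5*, *POLE4*, *ORC3* and *PCNA*), against 9.91%. In HS-like and epidermal-like cells *POLE4* alone was, against 5.44% and 4.11%. *UHRF1* in HS-like cells was at 21.9 CPM in anagen, 2.57 CPM in catagen and 12.6 CPM in telogen, from 94, 16 and 176 UMIs, so catagen stood at a log2 ratio of -3.09 (-3.95 to -2.32) to anagen. *MCM2* was at 41.7, 14.2 and 23.3 CPM in the same cells, so catagen was lowest for both. *POLE4*, which was higher in catagen over the library, was also higher in each of these classes, at 4.66 and 11.3 CPM in HS-like cells of anagen and catagen, at 5.10 and 13.4 CPM in epidermal-like cells and at 5.80 and 20.9 CPM in the DCN FABP7 ICA1 cluster.

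Other measures moved with this difference. HS-like cells held a median of 3930 UMIs in anagen and 2224 in catagen, and epidermal-like cells 4701 and 2995. The summed mitotic genes were at 168 and 62.4 CPM in HS-like cells of anagen and catagen and at 151 and 86.1 CPM in epidermal-like cells. In IFE-DC-like cells *UHRF1*, *MCM2*, *MCM3*, *MCM5* and *CLSPN* were past 2-fold lower in catagen too, against 6.08% of all genes, with *MCM2* at 10.9 and 4.78 CPM. In the same cells *POLA1* and *RPA1* were past 2-fold higher in catagen, against 8.6% of all genes, with *RPA1* at 4.02 and 17.1 CPM. In the few endothelial-like cells *UHRF1* rested on 6 UMIs in anagen and 1 in catagen. The part of depth, of free RNA in droplets and of dividing cells among the HS-like and epidermal-like cells was not tested.

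In telogen, INFU-like cells held less of the members than in anagen, by a log2 ratio of -0.48 (-0.51 to -0.45), with -0.26 for the median gene of these cells. Telogen was clustered alone here, whereas anagen was integrated with catagen, so these cells were not grouped together. Under the other clusterings the ratio ran from -1.05 to -0.18, beyond the counting interval on either side. The value of -0.18 came with all 3 libraries integrated, and it was not set against the median gene of that clustering. The size of the difference thus depended on how the clusters were cut. With telogen clustered alone, *UHRF1* was the 1 member past 2-fold lower in INFU-like cells, with -1.68 (-1.80 to -1.57), against 11.5% of all genes. *HELLS* was at 57.0, 80.7 and 60.0 CPM in INFU-like cells of the 3 libraries, with telogen close to anagen. In HS-like cells the ratio of telogen over anagen was -0.39 (-0.44 to -0.33), with -0.27 for the median gene, and 0 members were past 2-fold lower, against 11.5% of all genes.

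The share of each class differed between anagen and catagen as well. INFU-like cells made up 6.11% of the anagen library and 4.65% of the catagen library, the DCN FABP7 ICA1 cluster 10.5% and 3.54%, HS-like cells 7.74% and 19.9% and epidermal-like cells 16.9% and 26.8%. With all 3 libraries clustered together INFU-like cells made up 13.5% and 4.47% and the DCN FABP7 ICA1 cluster 3.86% and 2.93%. For the first clustering, classes were then weighted by their share of all UMIs, not of cells. INFU-like cells took 9.45% of UMIs in anagen and 6.51% in catagen, and HS-like cells 5.18% and 12.1%. Such shares depend on both the number and the depth of the cells. With the catagen level of each class and the UMI shares of anagen, the members would sum to 988 CPM, a log2 ratio of -0.06 to the anagen library. With anagen levels and catagen UMI shares they would sum to 944 CPM, a ratio of -0.13. These values are arithmetic on 1 library per stage, and the share of a class depends on how the clusters were cut and on which cells survived digestion.

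The level of the members went with that of other cell cycle genes in each library. Each cell was thinned to 1500 UMIs, and cells were grouped by UMIs of 2 lists that hold no member, 23 mitotic genes and 20 S phase genes such as *ATAD2* and *NASP*. With 0, 1 to 2, 3 to 9 and 10 or more mitotic UMIs, the summed members (unthinned) were at 770, 1345, 2306 and 1963 CPM in anagen, at 695, 1086, 2675 and 1852 CPM in catagen and at 594, 1068, 1835 and 1502 CPM in telogen. Members were thus highest at 3 to 9 mitotic UMIs and lower again in the cells richest in mitotic transcripts. With 0, 1, 2 and 3 or more S phase UMIs they were at 677, 950, 1453 and 2853 CPM in anagen, at 602, 737, 1090 and 2574 CPM in catagen and at 541, 728, 1088 and 2344 CPM in telogen, with no such turn. These ranges are cut from counts and are not cell types, and in anagen 243 of the 883 cells at 3 to 9 mitotic UMIs lay at the lower edge, with 442 just below it. The share of cells with 10 or more mitotic UMIs was 3.02% in anagen, 2.40% in catagen and 2.15% in telogen, from 11987, 9799 and 11570 cells deep enough.

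**Figure D4:**
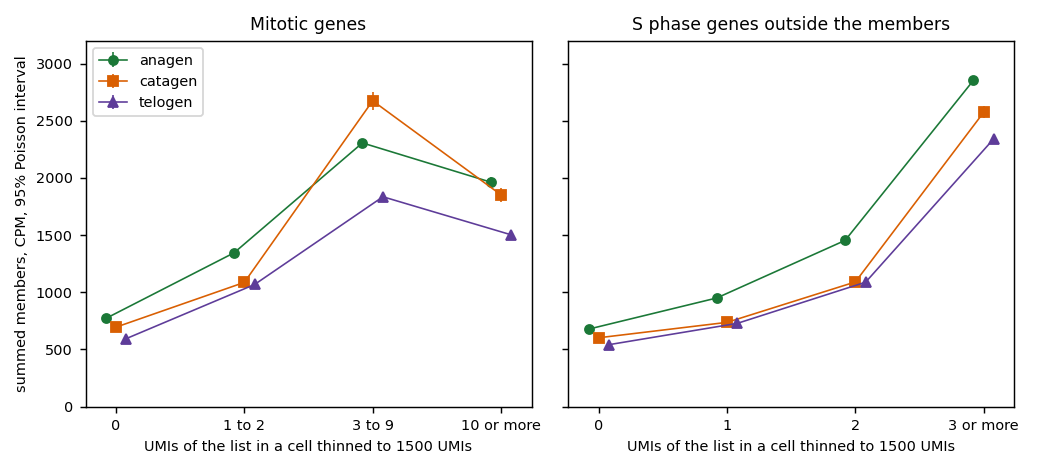
The plot by range gives the summed members in CPM, with 95% Poisson intervals, against the UMIs of the mitotic list (left) and of the S phase list outside the members (right) in cells thinned to 1500 UMIs, for the 3 libraries. In each library the left line peaks at 3 to 9 UMIs and the right line is highest at 3 or more.

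Members differed in which of these cells held most of them. Cells with at least 2 S phase UMIs and 0 mitotic UMIs (1487 in anagen, 1369 in catagen, 1201 in telogen) were set against cells with 10 or more mitotic UMIs (362, 235 and 249). *MCM5* was at 57.1 CPM in the former and 23.3 CPM in the latter in anagen, at 27.9 and 17.7 CPM in catagen and at 32.9 and 29.97 CPM in telogen. *CDT1* was at 43.0 and 29.5 CPM, 25.0 and 18.7 CPM, and 28.4 and 13.2 CPM. *POLD2*, an accessory subunit of polymerase delta, was at 26.5 and 12.4 CPM, 20.2 and 6.07 CPM, and 19.1 and 10.7 CPM, the 1 member with an interval above equality in all 3 libraries. In the other direction, *CLSPN* was at 35.5 and 107 CPM in anagen, at 18.8 and 109 CPM in catagen and at 16.3 and 62.4 CPM in telogen. *POLA1* was at 24.6 and 74.6 CPM, 32.5 and 107 CPM, and 17.2 and 72.8 CPM. In all 3 libraries the interval lay below equality for 16 members, among them *RRM1*, *RRM2*, *CDC45*, *UHRF1*, *PCNA*, *CHEK1*, *MCM7* and *PARP1*. *MCM3*, *MCM5* and *CDT1* had an interval above equality in 2 of the 3 libraries. The share of all genes with an interval on either side was not computed. Whether the members differ from other genes in this was thus not tested. The counts of members also depend on the number of S phase UMIs asked for. Cells with at least 2 and no mitotic UMI made up 12.4%, 14.0% and 10.4% of the thinned cells in anagen, catagen and telogen. Those with at least 3 made up 3.94%, 4.28% and 2.96%. How many cells at either cut were in S phase, and how many passed it by background counts, was not tested. With at least 3, which was added after seeing the data, the interval lay below equality in all 3 libraries for 5 members (*CDC45*, *CLSPN*, *PARP1*, *POLA1* and *RRM1*) and above it for 6 (*CDT1*, *HELLS*, *MCM2*, *MCM3*, *MCM5* and *POLD2*). The summed members in cells with at least 2 S phase UMIs were below those in the mitotic cells in each library, by log2 ratios of -0.45, -0.73 and -0.57. With at least 3 the ratio turned to 0.17 in anagen and 0.10 in telogen and was -0.10 in catagen.

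At 1500 UMIs per cell, *UHRF1* was seen in 6.33% of anagen cells (5.90 to 6.78%), 2.23% of catagen cells (1.95 to 2.55%) and 1.59% of telogen cells (1.37 to 1.84%). Before thinning the shares were 16.2%, 5.07% and 5.29% of all kept cells, whereas the thinned shares cover only cells of at least 1500 UMIs. Catagen and telogen changed places between these measures, which differ both in depth and in the cells counted. In INFU-like cells the thinned share was 29.8%, 22.9% and 13.0% (78.7%, 49.2% and 52.1% before thinning). The cells deep enough had median depths before thinning of 9726.5, 7085 and 11146 UMIs, and all INFU-like cells 9726.5, 5177 and 11025.5 UMIs. In endothelial-like cells, which should hold few dividing cells, 1 of 80 had a UMI in anagen and 0 of 31 in catagen, at median depths of 3311 and 2566 UMIs. For the latter, 3 of 31 cells, or 9.68%, is an approximate upper bound and not the exact interval. In IFE-DC-like cells the share was 1.15%, 0.0924% and 0.0641%.

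The other genes of the pathway were taken from a list of 22 with a row, which holds cofactors of the fork, histone chaperones and RNase H2 subunits. All 22 passed the minimum. In catagen 2 of them, *ASF1B* and *TK1*, were past 2-fold lower than in anagen and 0 higher, against 3.85% and 7.89% of all genes, and in telogen 4 were lower and 0 higher, against 10.1% and 3.08%. *TIMELESS*, a fork protection factor and 1 of these (the others being *CHAF1A*, *POLE* and *TICRR*), was at 9.55, 5.20 and 2.84 CPM. The list sum had log2 ratios over anagen of -0.36 (-0.37 to -0.34) and -0.56 (-0.57 to -0.54), beside -0.28 and -0.47 for the members. *TOP1* alone was at 346, 206 and 174 CPM of list sums of 838, 655 and 570 CPM, so these ratios rest in large part on 1 gene. The median gene of the list had log2 ratios of -0.19 and -0.80. The sum of the 20 S phase genes had -0.05 (-0.07 to -0.03) and -0.34 (-0.36 to -0.33), and that of the 23 mitotic genes -0.13 (-0.15 to -0.12) and -0.47 (-0.49 to -0.46). In the S phase list *NASP* was at 171, 116 and 103 CPM of sums of 584, 565 and 460 CPM. The median S phase gene had 0.04 and -0.27. The 19 genes that control entry into S phase had a log2 ratio of 0.42 (0.39 to 0.45) in catagen, and *CCND1*, cyclin D1, at 61.5 CPM in anagen and 143 CPM in catagen, made up most of that difference. Without it the sum was at 257 and 283 CPM, a ratio of 0.14 (0.11 to 0.17), which turned to -0.017 relative to the median gene. Of the 17 that passed the minimum, 11 were above 0 and 6 below in catagen, where 6367 of the 10530 genes were above 0 and 4163 below. *CCND1* and *CCND3* were past 2-fold higher, against 7.89% of all genes, and *CCND3* rested on 55 UMIs in anagen and 113 in catagen. The list also holds genes that restrain entry. Of these, *CDKN1A*, *CDKN1B*, *RB1* and *RBL2* stood at 0.72, 0.71, 0.52 and 0.81, and *RBL1* at -0.44. The list sum thus does not separate genes that promote entry from those that restrain it. In telogen the ratio of all 19 was -0.37 (-0.40 to -0.35).

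Across 65 pairs of cluster and library with at least 50 cells, the genes outside the members whose log2(CPM + 1) was most alike to that of the summed members were ENSBGRG00000025945, a gene without a symbol (Pearson r = 0.932), *SMC2*, a condensin subunit (0.918), *TMPO*, a protein of the nuclear lamina (0.906), *ATAD2*, an S phase chromatin factor (0.904), and *HMGB2*, a chromatin protein (0.891). The median over 7165 other genes was 0.232. Among the 35 members with a mean of at least 5 CPM, each set against the sum of the others, *DNMT1* (0.923), *POLD1* (0.897) and *MCM7* (0.883) were most alike to the rest, and *RRM2B* (0.0588), *POLE4* (0.228), *ORC4* (0.298) and *ORC3* (0.299) least. The points share libraries and depth, so these values are a description. *PARP1*, at 0.794, was above its level in other cells in HS-like cells and in endothelial-like cells of anagen, as well as in INFU-like cells.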

How the data were processed

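What the authors deposited is a matrix of raw UMI counts for each library, in whole numbers that had not been normalized. It was written by Cell Ranger, in version 4.0.0 (anagen), 3.1.0 (catagen) or 6.0.2 (telogen) per the file headers, whereas the submitters' processing notes name version 2.1.1, and the genome build is not given in the sources used here.

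Cells with at least 200 genes were kept. The members and 4 lists of cell cycle genes (128 genes in all) were left out of the 2000 variable genes per library. Anagen and catagen were integrated and telogen was clustered alone in Seurat 5.3.0 (R 4.3.3), with 30 components, 20 neighbours and resolution 0.8. A class name needed at least 3 markers raised 1.5-fold and 1 among the 10 leading genes, a rule set after the clusters had been seen. Doublets were not removed. Scrublet (scanpy 1.11.5) called 0 cells in each library, which does not show that doublets were absent, so classes may hold some. Stage sums without the highest 5% of scores are given below. Counts were summed per library or class and divided by the total, in Python 3.11.15 with numpy 2.4.6, pandas 2.3.3 and scipy 1.17.1. Class and stage ratios counted as past 2-fold within classes were taken on log2(CPM + 1). The ratios and their intervals were checked on Poisson counts simulated with known folds. Such counts hold counting error only, so the check does not cover differences between libraries or animals. The thinning was checked on some of the anagen cells, for its totals and for the sums of genes.

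With 1 library per stage no test was made. Named were *MCM2* to *MCM7*, *PCNA*, *UHRF1*, *DNMT1*, *HELLS*, *RRM2* and *PARP1*, in each stage comparison the 4 members at either end of the ratios, the 3 leading members with at least 20 CPM of a class and the 5 most alike other genes, and some were added for their role. The members, lists and markers were chosen with earlier results of these data known.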

Additional observations from a re-analysis of the deposited data

Results flagged for a closer look

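In 3 comparisons the summed members moved one way in 1 class and the opposite way in another. With 1 library per stage the differences were not tested. For catagen over anagen, the log2 ratio was 0.27 in the DCN FABP7 ICA1 cluster, from 2379 to 2870 CPM, and -0.44 in epidermal-like cells, from 962 to 708 CPM. The ratio of the cluster was 0.054 with all 3 libraries integrated and turned to -0.082 without integration. For telogen over anagen it was 0.68 in IRS-like cells and -0.48 in INFU-like cells, and for telogen over catagen 0.83 and -0.42 in the same classes. Under the other clusterings the INFU-like ratio of telogen over anagen ran from -1.05 to -0.18. With all 3 libraries clustered together, IRS-like cells (604, 259 and 162) held 672, 583 and 681 CPM in anagen, catagen and telogen. The telogen IRS-like cluster had 6 hair cortex markers raised besides its own, and the part of these cells in the ratio was not tested.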

How the results depend on the processing

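No paired analysis was possible because each stage has 1 library, and for the same reason no library could be left out. The lower member sum of catagen and of telogen against anagen held its direction under every alternative run. For catagen over anagen, -0.28 became -0.21 with at least 1000 genes per cell, -0.26 with cells of at least 2404 UMIs, -0.54 with median-of-ratios scaling, -0.35 as a mean of each cell's CPM, -0.31 without the highest 5% of Scrublet scores and -0.37 without *PCNA* and *RFC1*. For telogen over anagen, -0.47 became -0.22 with median-of-ratios scaling, -0.54 as a mean of each cell's CPM, -0.48 without the highest Scrublet scores and -0.51 without *PCNA* and *RFC1*. For telogen over catagen, -0.19 became -0.27 with at least 1000 genes per cell, -0.20 with at least 2404 UMIs and -0.14 without *PCNA* and *RFC1*, and turned to 0.31 with median-of-ratios scaling.

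The median member ratio was -0.29, -0.32 and -0.22 for catagen over anagen, telogen over anagen and telogen over catagen. The first became -0.15 with at least 1000 genes per cell and -0.54 with median-of-ratios scaling, the second -0.073 with that scaling and -0.41 at a minimum of 10 CPM, and the third turned to 0.28 with that scaling. Each count past 2-fold is given with the share of all genes past it under the same setting. Lower in catagen than in anagen were 0 members with at least 1000 genes per cell (3.57%), 12 with median-of-ratios scaling (7.41%) and 8 by cell means (4.8%), besides 2 with at least 2404 UMIs (3.75%). Higher in catagen were 0 at a minimum of 10 CPM (3.34%). For telogen over anagen, 2 were higher (5.89%) and 1 lower (6.08%) with median-of-ratios scaling, and 0 were higher by cell means (2.88%) and at a minimum of 10 CPM (2.73%). For telogen over catagen, 3 were lower with at least 1000 genes per cell (19.9%) and 2 with at least 2404 UMIs (17.3%), and 2 were higher with median-of-ratios scaling (12.5%).

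The log2 ratio of INFU-like over other cells in anagen was 1.59, and 1.55 with only the members left out of the variable genes, 1.49 without integration and 1.56 with all 3 libraries integrated, an alternative chosen after seeing the data. In catagen it was 1.77, and 1.73 and 1.83 in the first and last of these. In telogen it was 1.63, and 1.47 at resolution 0.4, 0.82 at resolution 1.2, 1.68 with only the members left out and 1.85 with all 3 integrated. For the DCN FABP7 ICA1 cluster it was 1.40 in anagen and 1.93 in catagen. In anagen it became 1.51 at resolution 1.2, 1.71 without integration and 1.63 with all 3 integrated, and in catagen 1.99 with all 3 integrated.

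Within INFU-like cells, -0.06 for catagen over anagen turned to 0.11 without integration and to 0.11 with all 3 integrated. For telogen over anagen, -0.48 became -0.56 and -1.05 at resolutions 0.4 and 1.2, -0.42 with only the members left out, -0.29 without integration and -0.18 with all 3 integrated. For telogen over catagen, -0.42 became -0.52 and -0.997 at these resolutions, -0.37 with only the members left out and -0.30 with all 3 integrated. Without the INFU-like cluster of 2 anagen and 142 catagen cells, chosen after seeing the data, INFU-like over other cells in catagen was 1.79. In the DCN FABP7 ICA1 cluster, 0.27 for catagen over anagen became 0.15 at resolution 1.2 and 0.054 with all 3 integrated, and turned to -0.082 without integration. At resolution 0.4, telogen over catagen in HS-like cells turned to 0.011 and catagen over anagen in IFE-DC-like cells to -0.047.

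Cells with 10 or more over cells with 0 mitotic UMIs had log2 ratios of 1.35, 1.42 and 1.34 in anagen, catagen and telogen, and 1.51, 1.68 and 1.63 with cells thinned to 3000 UMIs, and 1.28 in telogen with another random seed. Cells with S phase and 0 mitotic UMIs stood at -0.45, -0.73 and -0.57 to the mitotic cells with at least 2 S phase UMIs and at 0.17, -0.10 and 0.10 with at least 3, chosen after seeing the data. The share of cells with a *UHRF1* UMI was 10.6%, 5.03% and 3.09% at 3000 UMIs and 16.2%, 5.07% and 5.29% with no thinning. The cells counted differ between these settings, since thinning leaves out cells below its depth. The causes of these changes were not tested. Members at a few CPM, such as *ORC5*, rest on 84 to 124 UMIs a library, and differences in them below the width of their intervals could not be seen.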
